A study of Homo sapiens with 2 samples.

Results

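The sites described here are positions listed from PAR-CLIP of SOX2, a method that recovers RNA crosslinked to a protein. They lie within the genes of 7 chromatin remodeling proteins: CHD3, CHD4, CHD8, SMARCA4, ARID1A, EP400 and BPTF. Background RNA among the listed sites was not assessed. A site was a member when it overlapped a fixed hg19 interval around 1 of these genes on the strand of the gene. This gave 103 sites of 72794 in all, with 23 of 16964 in replicate 1 and 80 of 55830 in replicate 2. Within these intervals a site was taken by its position and strand only, whatever its score. The 7 genes themselves were chosen with earlier results of these data known. The 2 libraries are independent PAR-CLIP experiments of 1 group, made from HEK293T, a line derived from embryonic human kidney and expressing SV40 large T antigen. The cells carried a plasmid for FLAG-tagged SOX2, an HMG-box transcription factor used in reprogramming to pluripotency, were fed 0.2 mM 4-thiouridine for 16 hours from 24 hours after transfection, and were exposed to 0.4 J/cm2 of 365 nm light. RNase T1, which cuts after guanosine, trimmed the RNA in the lysate (1 U/ml) and again on the FLAG beads (10 U/ml). The bound protein is therefore the tagged form made from the plasmid. No control library and no measure of RNA abundance were used here, so a gene with more sites may have more RNA or more crosslinking per RNA, and these cannot be told apart. HEK293T marker genes were not read, because the lists hold positions without gene names.

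Chromatin remodelers use the energy of ATP to slide, evict or exchange nucleosomes and so control access to DNA. CHD3 and CHD4 are alternative ATPases of the NuRD complex, which joins remodeling to histone deacetylation, and CHD8 is a CHD-family ATPase known for binding beta-catenin and for its role in neurodevelopment. SMARCA4, also called BRG1, is an ATPase of the SWI/SNF (BAF) complexes, and ARID1A is a large subunit of these complexes without ATPase activity. EP400 is the ATPase of the TIP60/EP400 complex and belongs to another family than CHD, SWI/SNF or NURF. BPTF is the largest subunit of NURF and reads histone marks, while the ATPase of that complex is a separate protein.

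The remodeler genes took nearly the same share of sites in both experiments. They held 0.136% of the sites in replicate 1 and 0.143% in replicate 2, or 0.139% ± 0.00545 (SD, n = 2). The replicate 1 share rests on 23 sites, and this SD of 2 values does not measure their counting error. The larger list had 3.48-fold more remodeler sites, beside 3.29-fold more sites over the whole list. Their share of the score was far smaller. The authors deposited a score for each site, a whole number never below 5, without a stated meaning in the sources used here, and read depth is unknown. The 23 sites of replicate 1 summed to 947 of 5365592 (0.0176%), and the 80 sites of replicate 2 to 2076 of 5192778 (0.0400%). A large part of each list's score sum lay in a few very strong sites outside these genes.

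The rule takes sites on the strand of the gene, and the opposite strand of the same 601 kb, which it did not use, held 0 sites in both lists. Beside the 23 and 80 sense sites, a count of 0 allows an opposite share of up to 13.0% in replicate 1 and 3.75% in replicate 2. These limits, and the intervals given for other shares, cover counting error only, and sites on 1 RNA are not independent. Over the nuclear genome cut into windows of 100 kb on each strand, 53% of the windows that held 3 to 25 sites in both lists together had none opposite. An empty opposite strand is thus common for a single window in that range. Only CHD3, with 3 sites in both lists together, sets the low end, and the other genes had 12 to 25. The share at 12 to 25 sites, or over 7 intervals at once, was not computed. Next to the genes it was not empty: in stretches of equal length before and after the 7 intervals, 25% of replicate 1 sites and 24.3% of replicate 2 sites lay on the opposite strand.

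**Figure D1:**
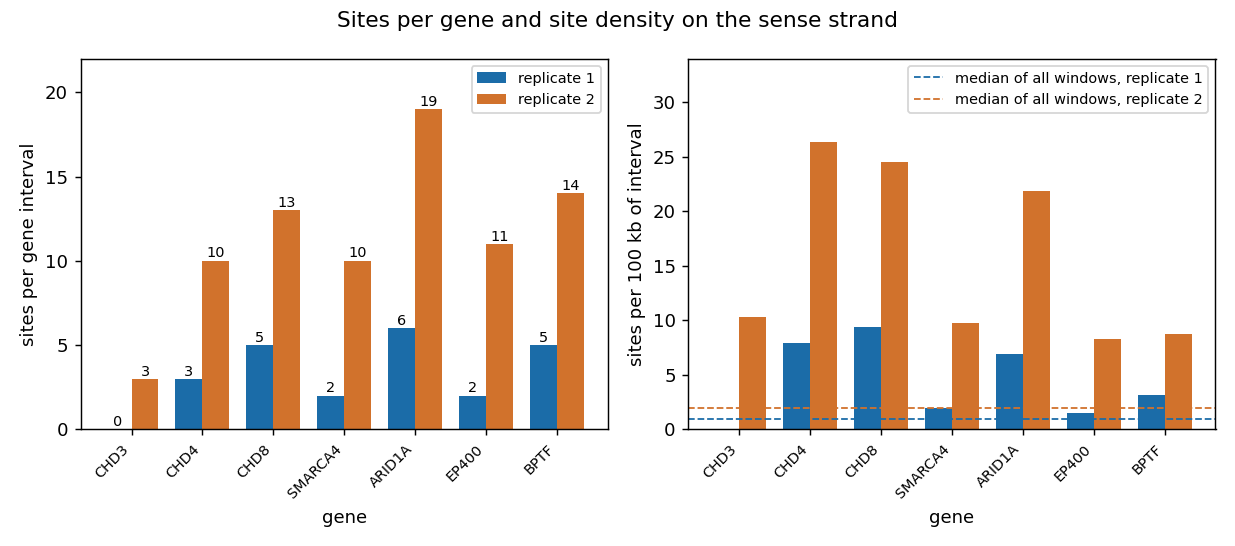
Number of sites per gene interval (left) and sites per 100 kb of interval (right) on the sense strand, with 1 bar per gene and replicate; each bar is a single count, so there are no error bars, and dashed lines mark the median of all 100 kb strand windows with a site in either list (1 in replicate 1 and 2 in replicate 2). CHD4, CHD8 and ARID1A have the tallest bars of the right panel in both replicates, and CHD3 has none in replicate 1.

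Per length of interval, CHD4, CHD8 and ARID1A were the densest in both experiments. The intervals of CHD4 and CHD8, at 38 and 53 kb, are shorter than the 44.4 and 70.9 kb these genes span in the GRCh38 annotation, so their density over the whole gene is not known. In replicate 1 CHD8 had 9.43 sites per 100 kb (95% exact Poisson interval 3.06 to 22.0), CHD4 7.89 (1.63 to 23.1) and ARID1A 6.90 (2.53 to 15.0). In replicate 2 the order was CHD4 at 26.3 (12.6 to 48.4), CHD8 at 24.5 (13.1 to 41.9) and ARID1A at 21.8 (13.1 to 34.1). These 3 genes could not be ordered among themselves, since their intervals overlap widely. The sparser genes of replicate 1 were BPTF with 3.12 sites per 100 kb (1.01 to 7.29), SMARCA4 with 1.96 (0.237 to 7.08), EP400 with 1.52 (0.183 to 5.47) and CHD3 with 0. In replicate 2 they were CHD3 with 10.3 (2.13 to 30.2), SMARCA4 with 9.80 (4.70 to 18.0), BPTF with 8.75 (4.78 to 14.7) and EP400 with 8.33 (4.16 to 14.9). Each of these intervals reaches into those of the denser genes, so the split in density is a description of these 2 lists.

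Set beside 12636 windows of 100 kb with at least 1 site in either list, CHD4, CHD8 and ARID1A ranked high by density in both replicates. Their intervals are shorter than 100 kb, so these densities are counts scaled up, while the window counts are not scaled. Unscaled, CHD4 had 3 and 10 sites and CHD8 5 and 13, none above the windows' 95th percentiles of 5 in replicate 1 and 16 in replicate 2. ARID1A, with 6 and 19 sites, was above both. The density of CHD4 exceeded the count of 98.6% of windows in both replicates, that of CHD8 99.4% in replicate 1 and 98.2% in replicate 2, and that of ARID1A 98.0% and 97.3%. BPTF stood above 90.9% and 85.0%, and SMARCA4 above 70.4% and 87.3%. EP400 exceeded 70.4% and 85.0%, and CHD3, without a site in replicate 1, exceeded 0% there and 89.0% in replicate 2. The densest window of each list held 19 and 82 sites. Windows are cut without regard to genes, so the ranks do not compare these genes with other genes. The genes were also chosen with earlier results of these data known, so the ranks are a description only.

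CHD3 had 3 sites in replicate 2 and none in replicate 1. The interval of CHD3 runs from 7788001 to 7817000 on the plus strand of chromosome 17. Its 3 sites of replicate 2, at 7797777 to 7797797, 7810062 to 7810075 and 7813671 to 7813685 (hg19), scored 13, 27 and 47. A count of 0 in replicate 1 allows a share of up to 0.0177% of its list, which is above the 0.00537% that CHD3 took in replicate 2, so a difference was not detectable at this size of list. For each of the 7 genes, the 95% Wilson intervals of its share of the list in the 2 replicates overlapped. The ratio of replicate 2 to replicate 1 sites ran from 2.6 for CHD8 to 5.5 for EP400 among the 6 genes with sites in both. CHD3 and CHD4 are close paralogs, and the treatment of reads matching both is not stated in the sources used here.

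**Figure D2:**
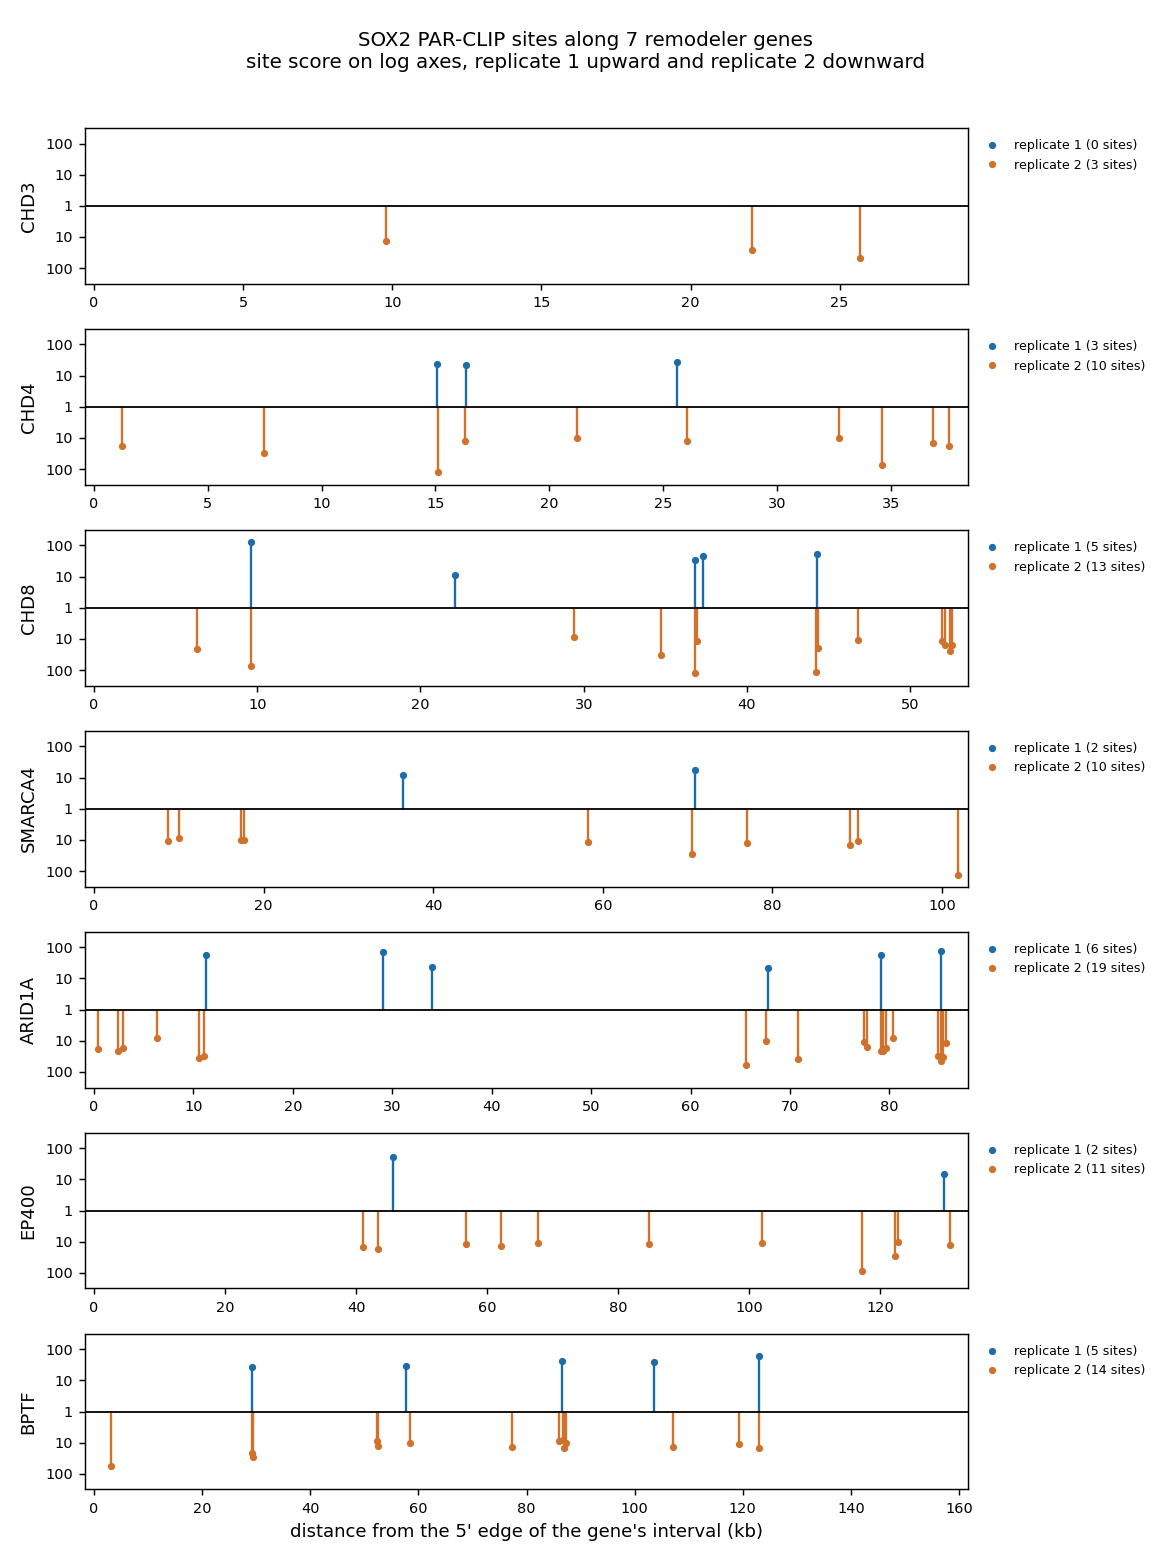
Each panel is 1 gene, with the distance from the 5′ edge of its interval in kb on the horizontal axis and site scores on log axes, replicate 1 upward (blue) and replicate 2 downward (orange); each stem is 1 site. The last site of BPTF stands at 123 kb in both lists with the final 37 kb empty, and ARID1A has no replicate 2 site for 54.5 kb in its middle.

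CHD4, the main NuRD ATPase in many cell types, held 2 of the 4 overlapping pairs of sites found in the 7 genes. Its interval runs from 6679001 to 6717000 on the minus strand of chromosome 12 (hg19, as for all positions here). The 3 sites of replicate 1 scored 24, 22 and 28, in order from the 5′ side. The first, at 6701908 to 6701928, overlapped the replicate 2 site at 6701901 to 6701914 by 7 nt. That replicate 2 site scored 120, 5-fold its partner, and was the highest of CHD4 in either list. The second, at 6700671 to 6700684, overlapped the site at 6700674 to 6700691 by 11 nt, with 22 in replicate 1 and 13 in replicate 2. The highest CHD4 site of replicate 1, at 6691391 to 6691407, had its nearest replicate 2 site 436 nt away. All 3 replicate 1 sites of CHD4 thus had a replicate 2 site within 1 kb. The 10 sites of replicate 2 scored 10 to 120, with a median of 16.5, and were spread from 1.23 kb to 37.6 kb of the 38 kb interval. Another replicate 2 site of CHD4, at 6682391 to 6682410, had a score of 75, with its nearest replicate 1 site 8980 nt away.

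CHD8 had no overlapping site, yet 3 of its 5 replicate 1 sites lay within 8 nt of a replicate 2 site. Its interval runs from 21853001 to 21906000 on the minus strand of chromosome 14. The highest CHD8 site of replicate 1, at 21896384 to 21896398, scored 133, and a replicate 2 site at 21896403 to 21896418, 4 nt away, scored 72. The replicate 1 site at 21869180 to 21869198 scored 34, and 3 nt from it the highest site of replicate 2, at 21869159 to 21869176, scored 127. At 21861723 to 21861739 the score was 54 in replicate 1, with a site of score 117 at 21861748 to 21861774 in replicate 2, 8 nt away. The 3 neighbouring pairs hold the highest CHD8 site of replicate 1 and the 3 highest of replicate 2. The other replicate 1 sites scored 46 and 11, with the nearest replicate 2 site 370 nt and 7327 nt away. Replicate 2 had a further group at the 3′ edge, where 4 sites with scores of 12 to 25 stood between 21853435 and 21854075, with the nearest replicate 1 site 7647 nt away.

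SMARCA4 was sparse and weak in replicate 1, with 2 sites that scored 12 and 17 in an interval from 11071001 to 11173000 on the plus strand of chromosome 19. The higher one, at 11141867 to 11141881, had a replicate 2 site of score 29 at 363 nt, and the lower one had its nearest at 18764 nt. No SMARCA4 site overlapped between the lists. In replicate 2, 9 of its 10 sites scored 9 to 29. The remaining one, at 11172844 to 11172860, scored 136, the highest remodeler site of either list, and carried 53.1% of the SMARCA4 score of that list. It lay within 1 kb of the 3′ edge of the interval, and the nearest replicate 1 site was 30962 nt away. Without it, the SMARCA4 sites of both lists scored 29 or less.

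ARID1A, the DNA-binding BAF subunit often mutated in cancer, had the most sites in both lists, 6 and 19. Its interval runs from 27022001 to 27109000 on the plus strand of chromosome 1. The replicate 1 sites scored 56, 71, 23, 21, 55 and 76 from the 5′ to the 3′ side. The highest, at 27107161 to 27107182, overlapped the replicate 2 site at 27107166 to 27107192 by 17 nt, with scores of 76 and 46. Another, at 27101120 to 27101137 with a score of 55, lay 8 nt from a replicate 2 site of score 22. In replicate 2 the sites fell into 2 groups. The 6 sites nearer the 5′ edge, the last of them at 27033027 to 27033040, scored 8 to 37. The 13 others, which lay from 65.5 kb to 85.7 kb, scored 8 to 59, the highest at 27087537 to 27087552. The 54.5 kb between the 2 groups held none in replicate 2, while replicate 1 had sites of scores 56, 71 and 23 there. The site of score 71 was its second highest on the gene. The densest 10 kb of any remodeler gene was in the group nearer the 3′ edge: 10 of the 19 sites lay within 10 kb from 77.4 kb on, and 8 lay in the last 10% of the interval.

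EP400 had 2 sites in replicate 1, of scores 52 and 15, in an interval from 132434001 to 132566000 on the plus strand of chromosome 12. The higher one, at 132479639 to 132479653, was 2289 nt from the nearest replicate 2 site. The lower one was 975 nt away from one, and none overlapped. The 11 sites of replicate 2 began 41.1 kb into the 132 kb interval. Of these, 9 scored 10 to 17, 1 scored 28 and the highest, at 132551137 to 132551161, scored 88, with the nearest replicate 1 site 12496 nt away. Replicate 1 sites began later still, at 45.6 kb, so the 5′ side of EP400 was empty in both lists. Equal stretches of the same strand on both sides held more sites than EP400 itself in both lists. There were 3 and 17 just before the interval and 5 and 23 just after it. In the GRCh38 annotation the next gene downstream on that strand is EP400P1, a pseudogene of EP400, so the assignment of reads that match both copies is uncertain.

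BPTF, the longest interval at 160 kb, had 5 sites in replicate 1 with scores of 27, 29, 41, 38 and 62 from the 5′ to the 3′ side. The interval lies at 65821001 to 65981000 on the plus strand of chromosome 17. The last and highest site, at 65943966 to 65943986, overlapped the replicate 2 site at 65943965 to 65943979 by 14 nt, with starts 1 nt apart. Its score was 62 in replicate 1, 4.13-fold the 15 of replicate 2. These were the last BPTF sites of both lists, and the final 37 kb of the interval held none. The replicate 1 site of score 41, at 65907636 to 65907649, lay 33 nt from a replicate 2 site of score 8. With that site, replicate 2 had 4 between 65907042 and 65908231, and they scored 8 to 15. The highest BPTF site of replicate 2 stood apart near the 5′ edge, at 65824113 to 65824126, with a score of 57 and the nearest replicate 1 site 26122 nt away. The other 13 replicate 2 sites scored 8 to 28.

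Over the 7 genes together, no difference from the whole lists was detectable in how often positions were shared. The 4 overlapping pairs (at least 1 nt on the same strand) were 17.4% of the replicate 1 remodeler sites (95% Wilson interval 6.98 to 37.1), beside 21.3% of all replicate 1 sites. From the other side they were 5.00% of the replicate 2 sites (1.96 to 12.2), beside 6.5% of all. Sites with higher scores are shared more often, so the members were also set against all sites of their own score class: these would give 5.30 shared sites in replicate 1 and 3.92 in replicate 2, against 4 observed in each. The direction of the score difference varied among the 4 pairs, with 1 higher in replicate 2 and 3 higher in replicate 1. No correlation of scores is given over so few pairs.

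Nearness reached further than overlap. A further 5 replicate 1 sites had no overlap but a replicate 2 site within 50 nt, at gaps of 3, 4, 8, 8 and 33 nt, which brought the share to 39.1% (22.2 to 59.2), beside 31.5% of all replicate 1 sites. Of replicate 2 remodeler sites, 10 (12.5%, 6.93 to 21.5) lay within 50 nt of a replicate 1 site, beside 10.7% of all. Within 1 kb the numbers were 17 of 23 replicate 1 sites (73.9%, 53.5 to 87.5), beside 53.3% of all, and 28 of 80 replicate 2 sites (35.0%, 25.5 to 45.9), beside 29.5%. The first of these backgrounds lies just under the interval, and the others lie inside theirs. A denser gene brings sites of the 2 lists nearer to each other without any shared position, and the part of density in these shares was not tested. The median distance to the nearest replicate 2 site was 240 nt for the remodeler sites of replicate 1 and 692 nt for all of them.

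**Figure D3:**
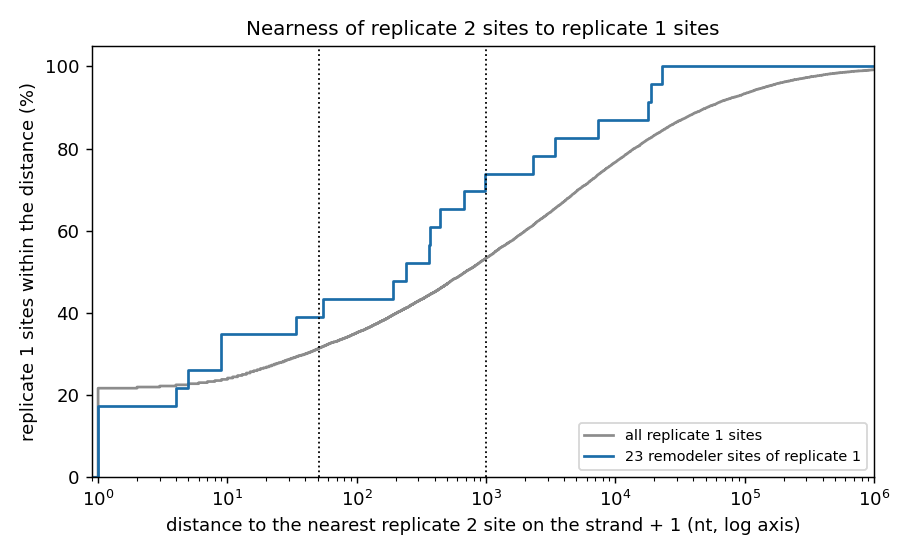
Cumulative share of replicate 1 sites (vertical axis, %) whose nearest replicate 2 site on the same strand lies within the distance on the horizontal log axis (nt, with 1 added so that a distance of 0 can be drawn), for the 23 remodeler sites (blue) and all replicate 1 sites (grey). The blue line starts below the grey one, at 17.4%, and stands above it at the dotted lines of 50 nt (39.1%) and 1 kb (73.9%).

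The scores of the remodeler sites reached at most 133 in replicate 1 and 136 in replicate 2. In replicate 1 they ran from 11 to 133 with a median of 34, beside a median of 26 over all sites, and in replicate 2 from 8 to 136 with a median of 15, beside 19. The order of the medians thus differed between the lists. In replicate 1, 82.6% of the members scored at least 20, beside 61.4% of all sites, while 35.0% did in replicate 2, beside 49.4%. Scores of at least 100 were few in both: 1 of 23 sites (4.35%) in replicate 1, beside 14.8% of all, and 4 of 80 (5.00%) in replicate 2, beside 7.34%. With counts of 1 and 4 and no interval given, no difference from the whole lists is claimed. These 5 sites lay in CHD8 (133, 127 and 117), SMARCA4 (136) and CHD4 (120). The SMARCA4 site was within the highest 4.95% of the replicate 2 scores, and the CHD8 site of score 133 within the highest 11.3% of those of replicate 1. No remodeler site reached a score of 500, where 2.92% of all replicate 1 sites and 0.980% of all replicate 2 sites stood. Site length was that of the lists, with a median of 17 nt in both replicates and extremes of 14 and 36 nt, beside medians of 16 and 17 nt over all sites.

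**Figure D4:**
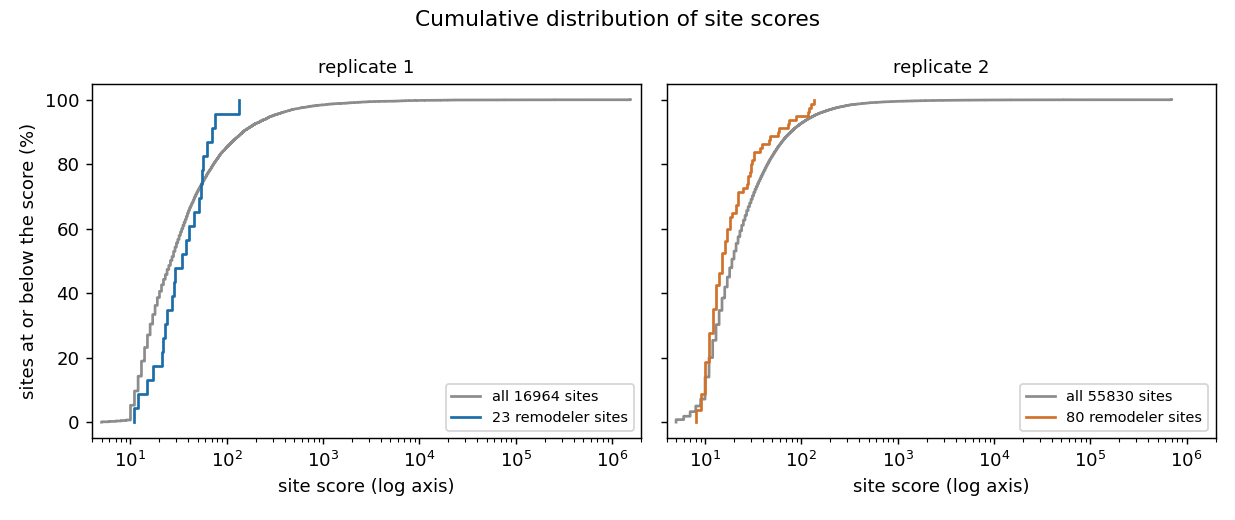
Cumulative share of sites (vertical axis, %) at or below the score on the horizontal log axis, for the remodeler sites (coloured) and all sites (grey) of replicate 1 (left) and replicate 2 (right). The coloured lines end at 133 and 136, while the grey lines run on to 1560568 and 702704; in replicate 1 the coloured line lies to the right of the grey one at low scores, with medians of 34 and 26.

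The largest number of replicate 2 sites lay toward the 3′ end of the intervals. Each interval was divided into 3 parts of equal length. The 5′, middle and 3′ parts of the 7 intervals held 3, 10 and 10 sites in replicate 1 and 21, 17 and 42 in replicate 2. The 3′ part took 43.5% (95% Wilson interval 25.6 to 63.2) in replicate 1 and 52.5% (41.7 to 63.1) in replicate 2, or 48.0% ± 6.38 (SD, n = 2). The 5′ part took 13.0% (4.54 to 32.1) and 26.3% (17.9 to 36.8), so the intervals of the 5′ and 3′ parts overlapped in replicate 1 and were apart in replicate 2. ARID1A and CHD8 gave 22 of the 42 replicate 2 sites in the 3′ part. BPTF went the other way, with 3 of its 14 replicate 2 sites and 1 of its 5 replicate 1 sites there. The final 10% of the intervals held 3 of 23 sites (13.0%) in replicate 1 and 19 of 80 (23.8%) in replicate 2. Outside the intervals, sense-strand sites in stretches of equal length were also more numerous downstream, summed over the 7 genes. They were 12 upstream and 21 downstream in replicate 1, and 54 and 80 in replicate 2. Whether a site is exonic or intronic was not read, for want of gene models on hg19.

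Remodeler sites had a close neighbour in their own list no more often than other sites. In replicate 2, 38 of 80 (47.5%) had a neighbour within 1 kb in the same list and on the same strand, beside 53.1% of all replicate 2 sites, and in replicate 1 it was 2 of 23 (8.70%), beside 21.5%. ARID1A gave 14 of the 38, CHD8 and BPTF 8 each, SMARCA4 4, and CHD4 and EP400 2 each. The 2 CHD8 sites at 21861637 to 21861672 and 21861748 to 21861774 in replicate 2 were 75 nt apart, and their names in the list share a running number whose meaning is not stated. The 36 nt of the former made it the longest remodeler site.

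The intervals match the annotated genes unevenly, which bears on the counts. In the GENCODE annotation of GRCh38, the genes span 28.0 kb for CHD3, 88.9 kb for ARID1A, 131 kb for EP400 and 159 kb for BPTF, close to the intervals of 29, 87, 132 and 160 kb. CHD4, CHD8 and SMARCA4 span 44.4, 70.9 and 119 kb there, longer than their intervals of 38, 53 and 102 kb, so sites in the outer parts of these genes may be missing from the counts. Small RNA genes lie on the same strand inside 4 of the genes: SCARNA21 in CHD3, SCARNA11 in CHD4, SNORD8 and SNORD9 in CHD8, and SNORA49 in EP400. Such RNAs guide the modification of other RNAs. Whether any site above falls in them was not read, since their positions are on another build. Stretches of equal length beside the genes were not empty of sense-strand sites: replicate 1 had 12 upstream and 21 downstream of the 7 intervals together against 23 inside, and replicate 2 had 54 and 80 against 80 inside.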

How the data were processed

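Both lists come from PAR-CLIP libraries of HEK293T cells. The authors deposited 1 list of 6 columns per library, with position, site name, score and strand; the deposited score has no stated unit, normalization or shared total. Per the submitters' processing notes, bcl2fastq, Bowtie 1.1.2 and the build hg19 were used; site caller, thresholds and the handling of reads with several matches remain not given in the sources used here. Per the labels' protocols, PCR ran for 18 cycles and single-end reads had 50 nt. Depth is unknown.

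Positions are 1-based. On chromosome 1 the sites reach 249168105, beyond the last GRCh38 feature at 248937043 (GENCODE 29), so that annotation served only for gene names, neighbours and spans. Sites were counted, paired (at least 1 nt on the same strand) and measured with Python 3.11.15, pandas 2.3.3, numpy 2.4.6 and scipy 1.17.1; the code was tested on simulated data. Distances between lists run from edge to edge, and positions along a gene use site midpoints. With 2 libraries of 1 group and no control, no test between conditions exists, and shares have 95% Wilson intervals. For every gene, the text names the highest-scoring site of each replicate and the overlapping pair with the best lower score; further sites were picked after seeing their values. The members, lists and measures were chosen with earlier results of these data known. Other remodeler genes were not counted, for want of hg19 gene models. Alternatives were a 50% overlap, strand ignored, gaps of up to 50 nt, a score minimum of 20, replicate 2 limited to its strongest sites, shortened intervals, score weighting and leaving out sites or a replicate.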

Additional observations from a re-analysis of the deposited data

How the results depend on the processing

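The opposite strand of the intervals held 0 sites, so the alternatives run on it, which only remove sites, could not move the sense share from 100%. The share of overlapping sites moved outside its interval when gaps of up to 50 nt counted as shared. It was then 39.1% of replicate 1 and 12.5% of replicate 2 remodeler sites, beside 31.5% and 10.7% of all sites. The replicate 2 share also moved when that list was limited to its highest-scoring sites, with 2 of 16 sites (12.5%). This value rests on 2 sites, and its Wilson interval of 3.50 to 36.0 includes the 5.00% of the main setting. The same limit lowered the replicate 1 share to 8.70% (2 of 23), within its interval. The overlap share also stayed inside with 50% overlap of both sites (13.0% and 3.75%) and with strand ignored (17.4% and 5.00%). With scores of at least 20 in both lists it was 10.5% and 7.14%, also inside. Apart from the 50 nt gaps, the share of all sites under these settings is not given here. Sites with higher scores are shared more often, so no difference from the whole lists is claimed under them. The share of the score sum, 0.0288% ± 0.0158 (SD, n = 2), rose to 0.0524% with the 10 strongest sites of each list left out of the total, and was 0.0193% without the strongest site of each gene. Density was 8.57 ± 6.71 sites per 100 kb (SD, n = 2) and 3.91 with scores of at least 20, where the replicates, at 3.16 and 4.66, lay closer. The share of sites in the 3′ part of the intervals ran from 46.7% with shortened intervals to 52.3% weighted by score. Leaving out either replicate gave single values: 3.83 and 13.3 sites per 100 kb, 0.0176% and 0.0400% of the score, and 43.5% and 52.5% in the 3′ part; it leaves no overlap to compute. No paired analysis was possible because only 1 group exists. Read depth is unknown, so its limit on weak sites was not settled.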

Other observations

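Each site name holds a running number, and in both lists these numbers increase along each strand of each chromosome with gaps. The meaning of the skipped numbers is not stated in the sources used here. The highest number was 248010 in replicate 1 and 235517 in replicate 2, while 16741 (6.75%) and 52377 (22.2%) of the numbers were listed. Within the remodeler genes, from the first to the last listed site of each gene with at least 2 sites, 23 of 145 numbers were listed in replicate 1 and 79 of 300 in replicate 2. The ends of these stretches are listed sites by construction, which raises both shares. CHD3, which had no site in replicate 1, lay within a 69.2 kb stretch between listed sites of that list in which 24 numbers were skipped.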
